A study of Saccharomyces cerevisiae with 18 samples.

Results

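The Ehrlich pathway is the route by which budding yeast takes up the nitrogen of aromatic and branched-chain amino acids. An aminotransferase removes the amino group, a decarboxylase turns the remaining 2-oxo acid into an aldehyde, and the aldehyde is reduced to a fusel alcohol or oxidised to a fusel acid. ARO9, ARO10 and their activator ARO80 form the aromatic branch, which nitrogen supply and aromatic amino acids are known to control. The 8 genes described here are ARO9, ARO10, ARO80, the branched-chain aminotransferase genes BAT1 and BAT2, and the pyruvate decarboxylase genes PDC1, PDC5 and PDC6. ARO10 was chosen by its measured levels on these arrays, where it is low in the swi3 mutant, and the other 7 were listed for their roles, with earlier results of the same arrays known. Each gene had 1 probe set in the platform annotation, and all 8 were among the 5659 features tested, out of 5814 probe sets. All 8 passed the filter on low values (a level of 4 on 3 arrays), which ARO10 met in every strain.

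Saccharomyces cerevisiae BY4741, a haploid laboratory strain of mating type a, was grown as a swi3 mutant, an rlm1 mutant and the wild type, each with 30 µg/ml Congo Red for 4 h or for 4 h without dye. Swi3 belongs to SWI/SNF, a complex that remodels chromatin, Rlm1 is a transcription factor of the cell wall integrity pathway, and Congo Red binds cell wall polymers. The labels name the mutants without saying how the alleles were made or how many clones were used. Each of the 6 groups had 3 Affymetrix arrays, numbered 1 to 3, of samples that the series design calls biological.

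All values are log2 levels, differences are log2 differences of group means with the SE of the fit, and a feature was called at an adjusted p under 0.05. SWI3 was at 3.16 to 3.51 on the swi3 arrays and at 8.39 to 9.87 elsewhere, and RLM1 at 4.53 to 5.05 on the rlm1 arrays and at 9.16 to 10.61 elsewhere. Of 47 reporter probe sets, 36 stayed under 7 on every array (this limit of 7 was chosen once the levels were known). A difference that reaches a level under 7 is therefore a least estimate, the scaling of the arrays aside. The swi3 arrays sat lower as a whole: array medians were 9.58 to 9.70 in swi3 and 10 to 10.04 in the wild type, and the median difference of all features, swi3 minus wild type, was -0.37 with the dye and -0.41 without. The median SD within groups was 0.15 with the dye and 0.14 without in swi3, and 0.11 and 0.10 in the wild type, smaller than this shift. The share of all features whose groups did not overlap was not counted, so separate groups are not read as particular to a gene. Per-array medians of the reporters were 4.28 to 4.46 in swi3 and 4.79 to 5.15 in the wild type. The 3' minus 5' difference of 7 control genes, a sign of RNA quality, was 0.80 to 1.26 in swi3 and 0.72 to 0.81 in the wild type. The number 1 arrays of rlm1 stood apart, with medians of 9.27 and 9.29 against 9.98 to 10.02 on the other rlm1 arrays, and 3' minus 5' differences of 1.03 and 1.15 against 0.76 to 0.86. They widen the spread shared by all comparisons, so results are also given without them. The a-cell genes MFA1, MFA2, STE2 and BAR1 were above 8 on every array. Of the alpha-cell genes, MF(ALPHA)1 and MF(ALPHA)2 were under 7 on every array, STE3 reached 7.23 in the wild type, and SAG1 lay at 7.62 to 7.94 in swi3 and 8.75 to 9.19 in the wild type. Of the sporulation genes, IME1 lay at 8.08 to 8.48 in swi3, 8.95 to 10.12 in rlm1 and 8.79 to 9.10 in the wild type. SPO11 reached 8.08 in the wild type, SPS4 reached 7.48 there and 7.80 in rlm1, and SPR3 was under 7 on every array. All 4 genes of each of the a-cell, alpha-cell and sporulation lists had lower medians in swi3 than in the wild type. The mean level of the a-cell genes was 10.48 to 11.57 in swi3 and 12.09 to 12.94 in the wild type, that of the alpha-cell genes was 5.42 to 5.72 in swi3 and 6.78 to 6.98 in the wild type, and that of the sporulation genes was 5.26 to 6.36 in swi3 and 6.67 to 7.43 in the wild type. The part of array level, RNA quality and these markers in the swi3 results was not tested.

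ARO10 and ARO9 were lower on every swi3 array than on any array of rlm1 or the wild type. ARO10 encodes the phenylpyruvate decarboxylase that converts 2-oxo acids of aromatic amino acids to aldehydes. With Congo Red its levels were 4.18, 4.85 and 4.47 on the swi3 arrays, against 10.45, 10.30 and 9.97 in the wild type. Without dye they were 4.08, 4.88 and 4.31 in swi3, against 8.74, 9.07 and 8.83 in the wild type. All 6 swi3 arrays were thus under 7, where the reporters lie, and no swi3 array came near the wild-type range. In bulk RNA, fewer cells expressing a gene and less RNA per cell cannot be told apart. The difference was -5.74 ± 0.35 with the dye and -4.46 ± 0.35 without (SE, n = 3 arrays per group), or -5.37 and -4.05 relative to the median of all features. In the deposited values the level in swi3 without dye was 22.0-fold lower. With swi3 at the level of the reporters this is a least estimate for that scaling only, and further quantile normalization gave a difference of -3.60. Since these values chose the gene no test is given.

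ARO9 encodes aromatic aminotransferase II, which begins the breakdown of aromatic amino acids. With Congo Red its levels were 7.05, 7.28 and 6.46 in swi3, against 10.96, 10.87 and 10.47 in the wild type. Without dye they were 5.99, 7.54 and 6.62 in swi3, against 10.48, 10.60 and 10.20 in the wild type. The groups were far from overlapping, and 3 of the 6 swi3 arrays were under 7. The difference was -3.84 ± 0.33 with the dye and -3.71 ± 0.33 without (SE, n = 3). ARO9 ranked among the largest decreases in these comparisons when the genes were listed, so it is described here without a test.

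ARO80 encodes the zinc cluster activator of ARO9 and ARO10. With the dye its levels were 7.65, 7.62 and 7.95 in swi3, against 8.69, 8.70 and 8.87 in the wild type. Without dye they were 6.87, 7.66 and 7.71 in swi3, against 8.53, 8.45 and 8.58 in the wild type. The groups did not overlap in either state, which also held for YRA1, a gene beside ARO10 that was not called. Number 1 without dye was the lowest swi3 array of ARO80. ARO80 fell in swi3 by 1.01 ± 0.32 with the dye (adjusted p = 0.037) and by 1.11 ± 0.32 without (adjusted p = 0.0234, limma). Relative to the median of all features these differences were -0.64 and -0.70. The call was lost in 4 of the 6 fits that left out 1 array without dye and in all 6 with the dye (adjusted p up to 0.109), and without both number 1 arrays of rlm1 the adjusted p was 1.4e-04 without dye.

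BAT1 and BAT2 encode the aminotransferases that exchange the amino group of leucine, isoleucine and valine, Bat1 in mitochondria and Bat2 in the cytosol. BAT2 had 11.13, 11.13 and 11.34 in swi3 with the dye, against 11.83, 12 and 12.38 in the wild type. Without dye it had 11.17, 11.24 and 10.95 in swi3, against 11.68, 12.23 and 12.35 in the wild type. Every swi3 array was below every wild-type array, and the lowest wild-type array was number 1 in both states. BAT2 fell in swi3 by 0.87 ± 0.26 with the dye (adjusted p = 0.0248) and by 0.97 ± 0.26 without (adjusted p = 0.0144, limma), or by 0.50 and 0.56 relative to the median of all features. The call was lost in 4 of the 6 fits without 1 array with the dye and in 3 of the 6 without it (adjusted p up to 0.102).

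BAT1 gave no call without a block on the array number, and its groups overlapped. Its levels were 13.07, 12.96 and 12.28 in swi3 with the dye, against 12.73, 12.49 and 11.86 in the wild type. Without dye they were 13.16, 12.96 and 12.32 in swi3, against 12.78, 12.71 and 12.03 in the wild type. Within each group number 3 was the low array, while the swi3 array was above the wild-type array of the same number in all 6 pairs, by 0.25 to 0.47. The difference of means was 0.41 ± 0.27 with the dye (adjusted p = 0.271) and 0.31 ± 0.27 without (adjusted p = 0.379). Between swi3 and the wild type, deviations of same-number arrays from their group means correlated over genes with r of 0.333 to 0.670 with the dye and 0.0872 to 0.597 without, so the numbers met the limit of 0.1 for pairing in all 3 pairs with the dye and in 2 of 3 without. Different numbers were not compared across strains, so the check cannot by itself establish the pairing. With the number as a block over the swi3 and wild-type arrays alone, a fit added after the data were seen, BAT1 was called (adjusted p = 1.2e-04 with the dye and 5.4e-04 without, limma). In that fit 74.3% of all features were called with the dye and 78.5% without.

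PDC1, PDC5 and PDC6 encode pyruvate decarboxylases, of which Pdc1 is the main form in fermenting cells. The coding sequences are close copies, so a probe set may take signal from a related transcript. PDC1 lay between 14.21 and 14.27 on the 6 swi3 arrays and between 14.16 and 14.24 on the 6 wild-type arrays. These levels are near the highest value of the table, 14.7. Its difference was 0.01 ± 0.11 with the dye (adjusted p = 0.968) and 0.05 ± 0.11 without (adjusted p = 0.70).

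PDC5 had 10.46, 9.97 and 10.28 in swi3 with the dye, against 10.74, 10.64 and 10.61 in the wild type. Without dye it had 10.44, 10.20 and 10.31 in swi3, against 10.58, 10.63 and 10.43 in the wild type. The groups were separate with the dye only, and neither difference was called (-0.43 ± 0.21, adjusted p = 0.140, with the dye and -0.23 ± 0.21, adjusted p = 0.381, without). Relative to the median of all features the difference was -0.06 with the dye and turned to 0.18 without. PDC5 with the dye was called when both number 1 arrays of rlm1 were left out (adjusted p = 0.00544) and with the block over swi3 and wild-type arrays (adjusted p = 0.00381).

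PDC6, the minor form, was the member with the highest difference in swi3. It had 8.10, 8.31 and 8.26 in swi3 with the dye, against 7.68, 7.57 and 7.50 in the wild type. Without dye it had 8.48, 8.42 and 8.19 in swi3, against 7.75, 7.63 and 7.76 in the wild type. All swi3 arrays were above all wild-type arrays in each state. The difference was 0.64 ± 0.26 with the dye (adjusted p = 0.0890) and 0.65 ± 0.26 without (adjusted p = 0.0765), or 1.01 and 1.06 relative to the median of all features. The differences were not called, but they were when both number 1 arrays of rlm1 were left out (adjusted p = 5.9e-05 with the dye and 5.2e-05 without). They were also called with the number as a block, at adjusted p = 0.0444 and 0.0370 over all strains and 2.9e-04 and 2.5e-04 over the swi3 and wild-type arrays.

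Of the 6 members given a test in swi3 against the wild type, 2 were called lower and 0 higher in each dye state, by limma, and 3 had an unadjusted p under 0.05. Over all features, 22.1% were called with the dye and 26.2% without, and 18.9% and 22.4% were called lower, so the members' count is not far from the background. Without both number 1 arrays of rlm1, 4 of the 6 were called with the dye and 3 without, where 67.1% and 72.2% of all features were called. With the block over swi3 and wild-type arrays 5 were called with the dye and 4 without, beside the shares given with BAT1. The median difference of these 6 members was -0.21 with the dye and -0.09 without, beside -0.37 and -0.41 over all features.

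**Figure D1:**
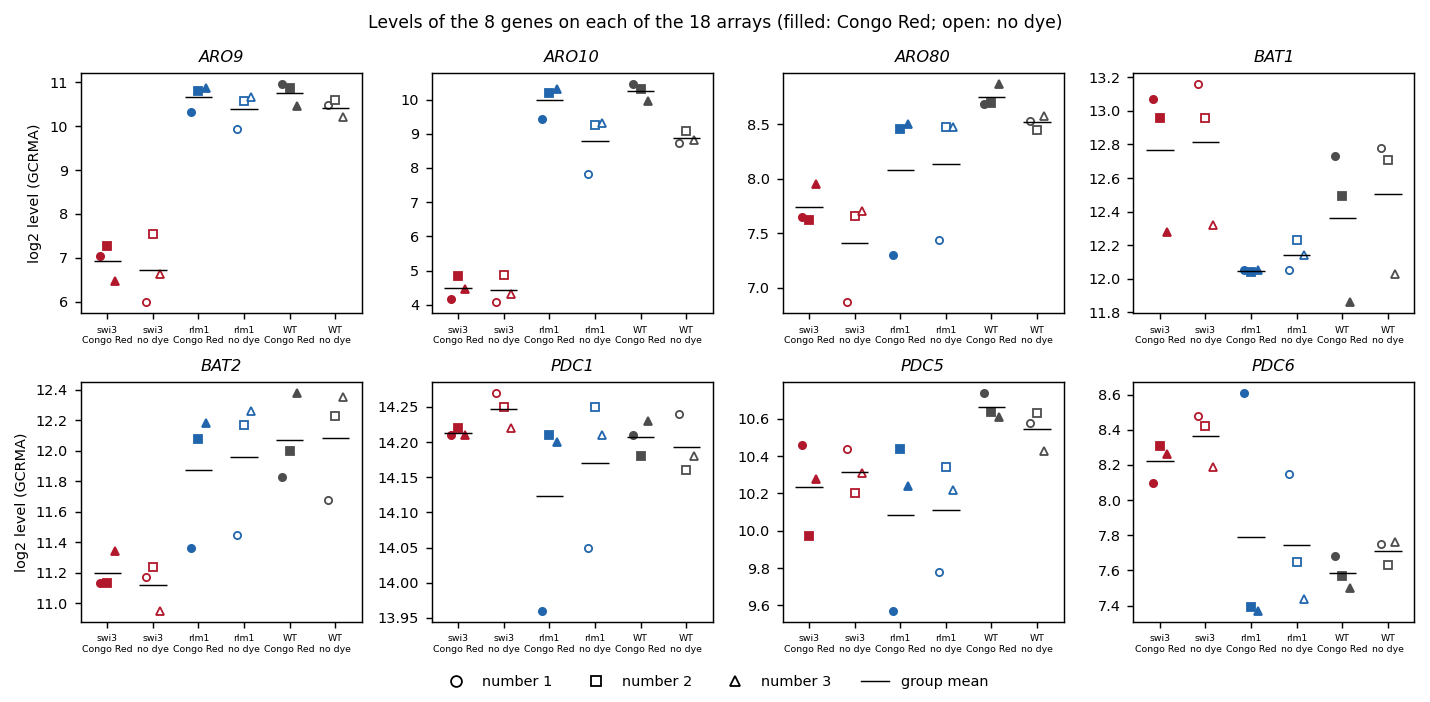
Log2 level (vertical axis) of each of the 8 genes on each of the 18 arrays, in the swi3, rlm1 and wild-type (WT) groups; symbols give the array number, filled symbols Congo Red and open symbols no dye, and lines the group means. ARO10 is at 4.08 to 4.88 on all swi3 arrays and at 7.82 or above elsewhere, and BAT1 is low on number 3 of swi3 and the wild type.

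**Figure D2:**
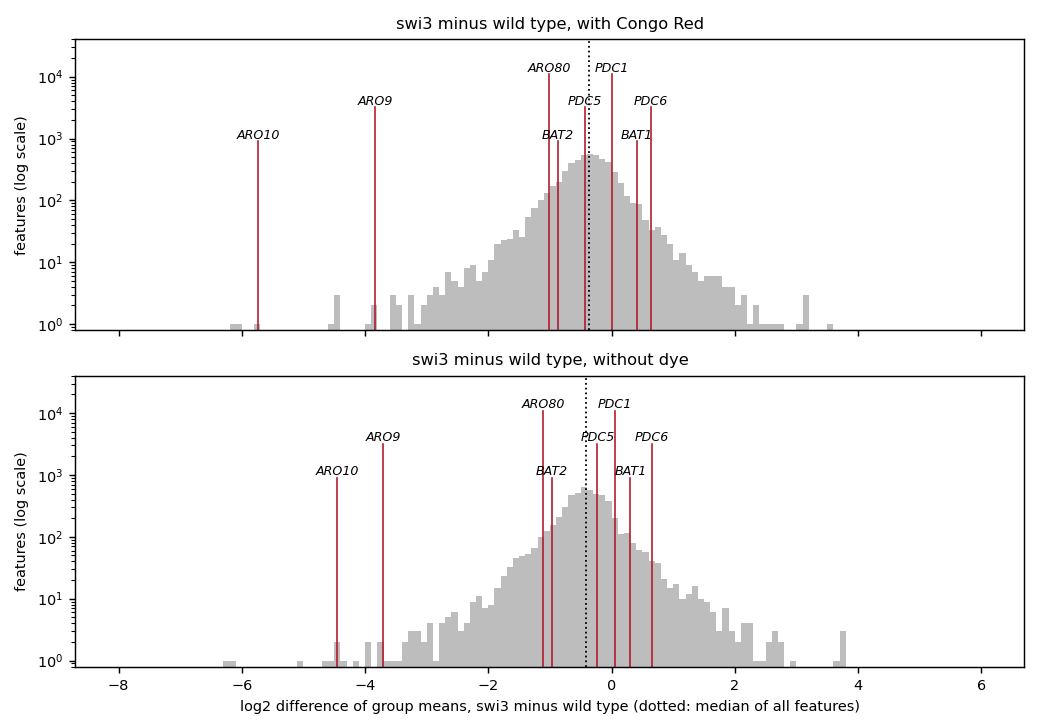
Number of features (log axis) by log2 difference of group means, swi3 minus wild type, with Congo Red above and without dye below, for all 5659 features; red lines mark the 8 genes and the dotted line the median of all features (-0.37 and -0.41). ARO10 and ARO9 lie in the low tail, and the other 6 genes lie between -1.11 and 0.65.

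None of the members tested was called in rlm1 against the wild type. With Congo Red ARO10 was 9.43, 10.18 and 10.31 in rlm1, in the range of the wild type given above but for number 1. Without dye it was 7.82, 9.26 and 9.32 in rlm1, with number 1 again the low array and numbers 2 and 3 above every wild-type array. The difference, rlm1 minus wild type, was -0.27 ± 0.35 with the dye and -0.08 ± 0.35 without, which became 0.01 ± 0.23 and 0.41 ± 0.23 once the number 1 arrays of rlm1 were left out. Group means of ARO10 were 4.50 ± 0.34 and 4.42 ± 0.41 in swi3, 9.97 ± 0.48 and 8.80 ± 0.85 in rlm1, and 10.24 ± 0.25 and 8.88 ± 0.17 in the wild type, each pair with and without the dye (SD, n = 3). In the order of these levels the Congo Red groups of rlm1 and the wild type stood highest, their untreated groups next and both swi3 groups lowest, and within each of these 3 pairs the groups overlapped.

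ARO9 had 10.32, 10.81 and 10.87 in rlm1 with the dye and 9.93, 10.57 and 10.67 without, overlapping the wild type in both states. Its differences were -0.10 ± 0.33 (adjusted p = 0.866) and -0.04 ± 0.33 (adjusted p = 0.944). ARO80 had 7.30, 8.46 and 8.50 in rlm1 with the dye, where all 3 arrays were below the wild type, and 7.44, 8.48 and 8.48 without. The number 1 arrays were again the low ones, and neither difference was called (-0.67 ± 0.32, adjusted p = 0.257, and -0.39 ± 0.32, adjusted p = 0.488).

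Among the other members PDC5 came closest to a call. It had 9.57, 10.44 and 10.24 in rlm1 with the dye and 9.78, 10.34 and 10.22 without. All of these were below the wild-type arrays of the same state, and the differences were -0.58 ± 0.21 (adjusted p = 0.138) and -0.43 ± 0.21 (adjusted p = 0.463). BAT1 was nearly constant in rlm1, at 12.04 to 12.05 with the dye and 12.05 to 12.23 without. BAT2 lay between 11.36 and 12.18 with the dye and between 11.45 and 12.26 without, and PDC1 between 13.96 and 14.25 over both states. Over both states the differences of BAT1, BAT2, PDC1 and PDC6, rlm1 minus wild type, ran from -0.37 to 0.21. PDC6 had 8.61, 7.39 and 7.37 in rlm1 with the dye and 8.15, 7.65 and 7.44 without, so that here number 1 was the high array. Of the 7 members tested, 0 were called by limma in rlm1 against the wild type in either state, with an unadjusted p under 0.05 for 1 of them, PDC5, with the dye and for 0 without. Of all features 3.64% were called with the dye and 0.0707% without.

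With Congo Red ARO10 was higher in rlm1 and the wild type, and the levels given above did not overlap between the dye states of either strain. In swi3 the difference, Congo Red minus none, was 0.08 ± 0.35, with same-number differences of 0.10, -0.03 and 0.16, at a level where the array gives only a bound. In rlm1 it was 1.17 ± 0.35, with same-number differences of 1.61, 0.92 and 0.99, which became 0.96 ± 0.25 once the number 1 pair was left out. In the wild type it was 1.36 ± 0.35, with same-number differences of 1.71, 1.23 and 1.14. The dye response in swi3 minus that in the wild type was -1.28 ± 0.50, and in rlm1 minus the wild type -0.19 ± 0.50. These comparisons share arrays with those between strains, and no test is given for ARO10.

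ARO9 was not called for the dye in any strain. Its difference, Congo Red minus none, was 0.21 ± 0.33 in swi3, 0.28 ± 0.33 in rlm1 and 0.34 ± 0.33 in the wild type (adjusted p = 1 in each, limma). Same-number differences were 1.06, -0.26 and -0.16 in swi3, 0.39, 0.24 and 0.20 in rlm1, and 0.48, 0.27 and 0.27 in the wild type. They were above 0 in all pairs of rlm1 and the wild type and of mixed sign in swi3. With the replicate block within strain, the adjusted p for ARO9 was 0.583 in swi3, 0.605 in rlm1 and 0.251 in the wild type.

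For ARO80 the same-number differences were 0.78, -0.04 and 0.24 in swi3, -0.14, -0.02 and 0.02 in rlm1, and 0.16, 0.25 and 0.29 in the wild type. The wild-type groups of ARO80 did not overlap, yet the difference of 0.23 ± 0.32 was not called (adjusted p = 1, or 0.187 with the block). BAT1 differed by -0.05 to -0.22 in the wild-type pairs and by -0.19 to 0 in swi3 and rlm1. Differences of BAT2, PDC1, PDC5 and PDC6 between arrays of the same number ran from -0.38 to 0.46, with both extremes in PDC6. By limma, 0 of the 7 members tested were called in any strain or in either difference of responses, with or without the block, and 0 had an unadjusted p under 0.05 without it. Of all features 0.159% were called in swi3, 0.0884% in rlm1 and 2.05% in the wild type, where the block raised this to 32.8%. For the difference of responses, 0.106% were called in swi3 minus the wild type and 0.318% in rlm1 minus the wild type.

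**Figure D3:**
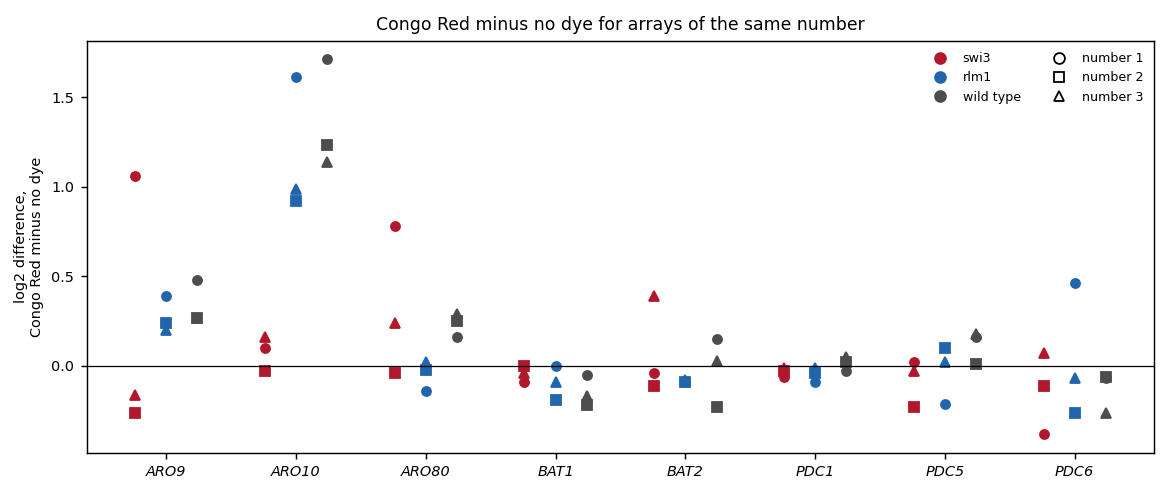
Log2 difference, Congo Red minus no dye, between arrays of the same number (symbols) in swi3, rlm1 and the wild type (colours) for the 8 genes. ARO10 runs from -0.03 to 0.16 in swi3 and from 0.92 to 1.71 over the pairs of rlm1 and the wild type.

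The genes whose pattern was most like that of ARO10 were found by Pearson's r over the 18 arrays among 1328 named genes whose group means spanned at least 1. They were ARO9 (r = 0.981), the ferric reductase homologue FRE7 (0.979), the serine and threonine deaminase gene CHA1 (0.974), SWI3 itself (0.972) and the multidrug transporter gene QDR2 (0.972). Without both number 1 arrays of rlm1 the first 5 were CHA1, FRE7, ARO9, BIT2 and YNL011C (r from 0.982 to 0.987). The swi3 arrays form a cluster of their own for ARO10, so these values rest largely on that split. Over the 12 other arrays, which share strains, dye states and array level, r with ARO10 was 0.875 for ARO9, 0.758 for FRE7, 0.719 for CHA1, 0.709 for QDR2 and 0.495 for SWI3. Without the number 1 arrays of rlm1, over 10 arrays, it was 0.816 for ARO9, 0.756 for FRE7, 0.764 for CHA1, 0.563 for QDR2 and 0.231 for SWI3. BIT2 had 0.55 and 0.65 over these 12 and 10 arrays, and YNL011C 0.62 and 0.75. Over the 6 swi3 arrays, where ARO10 was under 7, r was 0.782 for ARO9, 0.608 for FRE7, 0.646 for BIT2 and 0.356 for YNL011C. There it was -0.464 for CHA1, -0.154 for QDR2 and 0.118 for SWI3. ARO80 ranked 455th over all arrays (r = 0.739) and 339th without the number 1 arrays of rlm1 (r = 0.912). Its r was lower without that split, at 0.531 over the 12 arrays, 0.407 over the 10 and 0.457 over the 6 swi3 arrays. CHA1, the first of the second list, averaged 10.33 ± 0.05 in swi3 with the dye and 10.37 ± 0.06 without, against 11.69 ± 0.05 and 11.55 ± 0.07 in the wild type (SD, n = 3).

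Most of the genes beside the members in assembly R64, used only for gene order, had lower means in swi3, by differing amounts. The median difference of all features was -0.37 with the dye and -0.41 without, so lower means alone do not set the neighbours apart. Of all features 22.1% were called with the dye and 26.2% without. PIL1, next to PDC6, was the only neighbour called higher, by 0.54 ± 0.15 with the dye (adjusted p = 0.0160, limma) and 0.60 ± 0.15 without (adjusted p = 0.00906). CRG1, next to BAT1, differed by -2.26 ± 0.50 with the dye (adjusted p = 0.00517) and by -0.90 ± 0.50 without (adjusted p = 0.173). SPL2, a phosphate-regulated gene next to ARO9, averaged 5.46 ± 0.16 in swi3 and 11.50 ± 0.68 in the wild type with the dye, and 5.64 ± 0.10 in swi3 and 11.78 ± 0.34 in the wild type without it (SD, n = 3). YHR138C, on the other side of ARO9, differed by -1.05 ± 0.34 with the dye (adjusted p = 0.0397, limma) and by -0.13 ± 0.34 without (adjusted p = 0.763). Next to ARO10, SDH6 differed by -1.39 ± 0.55 with the dye (adjusted p = 0.0784) and by -1.06 ± 0.55 without (adjusted p = 0.147). YRA1, the mRNA export gene on the other side, differed by -0.34 ± 0.15 (adjusted p = 0.0986) and -0.37 ± 0.15 (adjusted p = 0.0715). HMS2, next to BAT2, averaged 6.26 ± 0.46 in swi3 and 8.80 ± 0.33 in the wild type with the dye, and 6.50 ± 0.18 in swi3 and 9.92 ± 0.06 in the wild type without (SD, n = 3).

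The later steps of the pathway were mixed in swi3. Of 20 other Ehrlich pathway enzymes and exporters, 1 was called higher and 4 lower with the dye, and 3 higher and 4 lower without, with medians of -0.21 and -0.27, where 22.1% and 26.2% of all features were called. The mitochondrial aldehyde dehydrogenase gene ALD4 averaged 13.17 ± 0.08 in swi3 without dye, against 11.35 ± 0.15 in the wild type (SD, n = 3), and rose by 1.83 ± 0.30 (adjusted p = 5.6e-04). The alcohol acetyltransferase gene ATF2 averaged 8.07 ± 0.17 in swi3 and 9.63 ± 0.18 in the wild type and fell by 1.56 ± 0.18 (adjusted p = 2.6e-05). ALD5, for another mitochondrial aldehyde dehydrogenase, fell by 1.01 ± 0.17 (adjusted p = 6.7e-04), and the alcohol dehydrogenase gene ADH4 fell by 0.96 ± 0.21 (adjusted p = 0.00436). ATF2 was lower with the dye too, by a difference of -1.56 ± 0.18 (adjusted p = 2.2e-05). ARO8, the aminotransferase that also serves aromatic synthesis, averaged 12.64 ± 0.15 in swi3 and 13.00 ± 0.10 in the wild type with the dye, and 12.61 ± 0.18 and 12.92 ± 0.14 without. When 1 array was left out, 0 to 1 were called higher and 2 to 3 lower with the dye, and 1 to 2 higher and 3 lower without. Without both number 1 arrays of rlm1, 10 of the 20 were called lower in each state, where 59% of all features were called lower with the dye and 64.2% without. After quantile normalization 7 were called higher in each, where 16.8% and 14% of all features were. With the block over swi3 and wild-type arrays 3 were called higher and 11 lower with the dye, where 74.3% of all features were called.

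Genes under nitrogen catabolite repression, to which ARO9 and ARO10 are known to respond, were called in both directions in swi3. The part of nitrogen control in the ARO9 and ARO10 levels was not tested. Of 28 measured, 2 were called higher and 7 lower with the dye, and 2 higher and 8 lower without, where 22.1% and 26.2% of all features were called. As 18.9% and 22.4% of all features were called lower, these counts are not far from the background. The medians of the list were -0.41 and -0.46, beside -0.37 and -0.41 over all features. The proline permease gene PUT4 averaged 10.37 ± 0.14 in swi3 without dye, against 6.68 ± 0.24 in the wild type, and rose by 3.69 ± 0.26 (adjusted p = 1.5e-07). The general amino acid permease gene GAP1 rose by 1.69 ± 0.36 (adjusted p = 0.00385). CAR2, for ornithine aminotransferase, averaged 9.21 ± 0.32 in swi3 and 11.97 ± 0.26 in the wild type and fell by 2.75 ± 0.21 (adjusted p = 2.9e-07). The repressor gene DAL80 was under 7 in both strains, and its call was lost after quantile normalization. When 1 array was left out, 4 to 6 were called lower with the dye and 2 to 5 without, with 4 when wild-type or swi3 number 2 was left out with the dye and 2 when wild-type number 1 or 2 was left out without it. Without both number 1 arrays of rlm1, 16 of the 28 were called lower with the dye and 17 without, where 59% and 64.2% of all features were called lower. With the block over swi3 and wild-type arrays 19 were called lower in each state, where 74.3% and 78.5% of all features were called.

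Amino acid synthesis around the pathway was measured in 2 lists, beside the 22.1% and 26.2% of all features called in swi3 with and without the dye. Of 11 aromatic synthesis genes, 1 was called lower with the dye and 0 were called without (limma, 1 with an unadjusted p under 0.05), with medians of -0.04 and -0.13. The called gene was TYR1, for prephenate dehydrogenase, which averaged 10.16 ± 0.04 in swi3 and 11.11 ± 0.09 in the wild type (SD, n = 3) and fell by 0.95 ± 0.21 (adjusted p = 0.00467, limma). Without both number 1 arrays of rlm1, 3 were called lower with the dye and 4 without, where 59% and 64.2% of all features were. With the block over swi3 and wild-type arrays 3 and 5 were called lower, where 74.3% and 78.5% of all features were called. Of 10 branched-chain synthesis genes, 1 was called higher and 1 lower with the dye, and 1 higher and 2 lower without. The 10 include LEU2, which is deleted in BY4741 and was under 7 on every swi3 and wild-type array, and at 6.39 to 7.84 in rlm1. Other genes deleted in BY4741 were not alike, as MET17 and URA3 were under 7 on every array. HIS3 lay at 11.13 to 11.43 in swi3, 10.55 to 11.17 in rlm1 and 10.48 to 11.39 in the wild type. The lower count of the 10 synthesis genes was 0 with the dye in all 6 fits that left out 1 array, and 0 to 1 without it. Those called lower were LEU3 in both states, whose call was lost in 9 of 15 alternatives in each, and LEU9 without dye. With the block over swi3 and wild-type arrays 6 were called higher and 3 lower with the dye, and 4 higher and 3 lower without. The shares of all features called in that fit were again 74.3% and 78.5%. ILV6, the regulatory subunit of acetolactate synthase, rose by 0.73 ± 0.14 with the dye (adjusted p = 0.00229) and by 0.68 ± 0.14 without (adjusted p = 0.00392).

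The decarboxylases use thiamine diphosphate and draw on glycolysis. Of 15 thiamine genes measured, 3 were called higher and 7 lower in swi3 in each state, with medians of -0.48 with the dye and -0.59 without, beside the 22.1% and 26.2% of all features called. The lower count with the dye was 4 when wild-type number 2 or 3 or swi3 number 1 was left out. It was 11 with the block over swi3 and wild-type arrays, where 74.3% of all features were called. The thiazole synthase gene THI4 rose by 1.41 ± 0.36 without dye (adjusted p = 0.0121), and the acid phosphatase gene PHO3 fell by 1.99 ± 0.35 (adjusted p = 0.00108). Of 18 glycolysis genes, 0 were called higher and 2 lower with the dye, and 2 higher and 2 lower without, with medians of -0.08 in each state. When any 1 array was left out the counts were 0 higher and 0 lower with the dye, and 1 and 1 without. With the block over swi3 and wild-type arrays 2 were called higher and 6 lower with the dye, beside the same 74.3% of all features. GLK1, for glucokinase, rose by 0.95 ± 0.19 without dye (adjusted p = 0.00278), and the glycolytic activator gene GCR1 fell by 1.03 ± 0.24 (adjusted p = 0.00818).

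Outside swi3 the lists gave 4 calls, 3 in rlm1 against the wild type with the dye and 1 for the dye in the wild type, where 3.64% and 2.05% of all features were called. In the wild type, the allantoin permease gene DAL4 of the nitrogen list averaged 7.75 ± 0.04 with Congo Red and 6.41 ± 0.18 without (SD, n = 3) and rose by 1.34 ± 0.21 (adjusted p = 0.00176), from a level under 7. With the block 8 of the 28 nitrogen genes were called higher and 2 lower with Congo Red in the wild type, beside 32.8% of all features. With the dye, DAL4 fell by 1.59 ± 0.21 in rlm1 relative to the wild type (adjusted p = 2.8e-04), THI13 fell by 1.45 ± 0.31 (adjusted p = 0.0141) and the hexokinase gene HXK1 fell by 1.16 ± 0.29 (adjusted p = 0.0352). The THI13 call was lost in 4 of 14 alternatives and the HXK1 call in 6 of 14.

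The low number 3 arrays of BAT1 had counterparts among some branched-chain synthesis genes, a comparison chosen after the values were seen. Number 3 minus the mean of numbers 1 and 2 was -0.74 for BAT1 in both swi3 groups, 0.01 and 0 in the rlm1 groups, and -0.75 and -0.72 in the wild-type groups. For LEU1, which encodes isopropylmalate isomerase, this was -1.53 and -1.13 in swi3, -0.12 and 0.01 in rlm1, and -1.95 and -1.27 in the wild type, with and without the dye. For LEU4, the main isopropylmalate synthase gene, it was -0.68 and -0.69 in swi3, 0.21 and 0.20 in rlm1, and -0.79 and -0.69 in the wild type. ILV3, for dihydroxyacid dehydratase, had -1.22 and -0.82 in swi3, -0.03 and 0.02 in rlm1, and -1.32 and -0.70 in the wild type. These 3 had the deepest drops in the wild type without dye. Of all 10 genes of the list, number 3 was below the mean of the others for 8 and 9 in swi3, 3 and 2 in rlm1, and 8 and 8 in the wild type, with and without the dye. LEU3 was above it in all 6 groups, and LEU2 in both wild-type groups, by 0.29 without dye. LEU2 is deleted in BY4741 and was under 7 on all 6 swi3 and all 6 wild-type arrays, and on 4 of the 6 rlm1 arrays. Its part in these counts is therefore not read as a change of the gene. For BAT2 the value was 0.21 and -0.26 in swi3, 0.46 and 0.45 in rlm1, and 0.47 and 0.40 in the wild type.

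**Figure D4:**
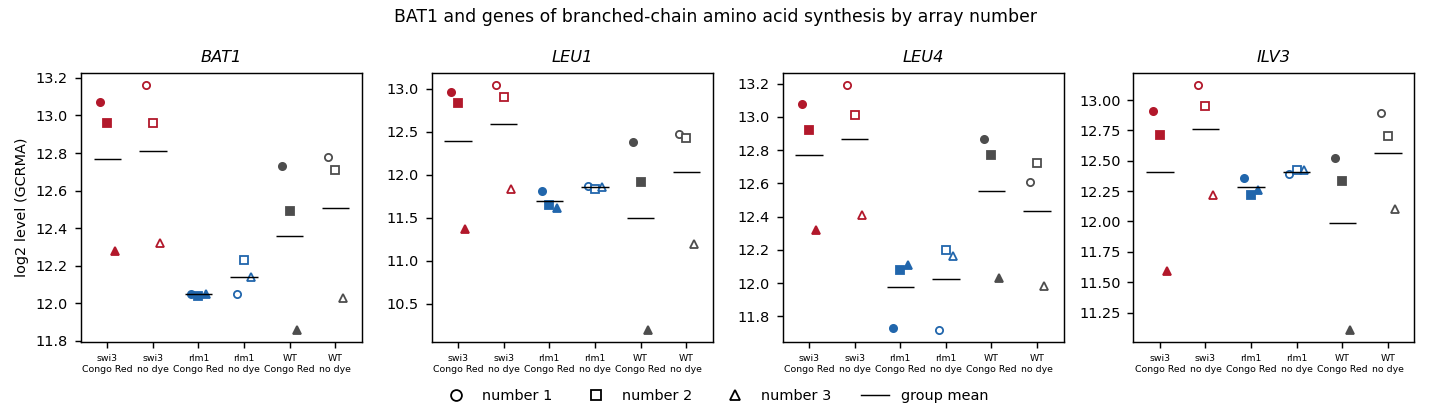
Log2 level (vertical axis) of BAT1, LEU1, LEU4 and ILV3 on each array, with array numbers as symbols, filled symbols for Congo Red, open symbols for no dye, and lines for group means. Number 3 is the lowest array of these genes in both swi3 and both wild-type (WT) groups.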

How the data were processed

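The deposited table holds 1 log2 value per probe set and array for 18 arrays. GCRMA, which corrects background, normalizes and summarises probes, is named in the submitters' processing notes, and its version and settings are not given in the sources used here. That the authors' values are log2 was read from their range (2.83 to 14.7). Controls (98 probe sets) were left out. Symbols came from the platform annotation, updated through assembly R64 (12 changed). The annotation gave 1 symbol for 5498 probe sets, none for 218 and several for 0. Where probe sets shared a gene the brightest was kept (49 dropped), and a feature needed a level of 4 on 3 arrays, which left 5659. The number of arrays limits the precision. At least 95.3% of probe sets differed between any 2 arrays.

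A model of 6 group means over the 18 arrays was fitted by limma 3.58.1 (lmFit, eBayes) in R 4.3.3, with Benjamini-Hochberg adjustment over the 5659 features, for 9 comparisons. The scripts were tested on simulated data. The members, lists and tests were chosen with earlier results of these data known. Named genes are the 8 members, SWI3 and RLM1, up to 3 called genes per list and direction, the 5 genes most like ARO10 by r and, chosen by gene order, the neighbours. Not every gene that qualifies is printed, and the genes set beside BAT1 were chosen after their values were seen. A p is withheld for ARO10 throughout and for ARO9 in swi3 against the wild type. For ARO9 without dye this was decided after its values were seen, since the plan withheld only the comparison with Congo Red, and it removes 1 lower call from the members' count.

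Within strains, deviations from group means correlated across genes between treated and untreated arrays of the same number (r of 0.419 to 0.909). The numbers were treated as pairs within strains, from this check and not from the labels. Arrays of unlike number had negative r in swi3. For rlm1, treated number 3 with untreated number 2 gave 0.871, and the reverse gave 0.765, beside same-number values of 0.852 (number 2) and 0.837 (number 3). Wild-type treated number 1 with untreated number 2 gave 0.413, beside 0.454 for number 2 with itself. The check therefore cannot decide the pairing of numbers 2 and 3 in rlm1, where both number 1 arrays stood apart. Across strains, where only arrays of the same number were compared, r ran from 0.0872 to 0.670 between swi3 and the wild type. Between rlm1 and the wild type it ran from -0.195 to 0.245, so a block over the swi3 and wild-type arrays was added after the data were seen. Alternatives were further quantile normalization, centring on array medians, other filters, a trended and robust prior, left-out arrays, the compared strains alone and a replicate block.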

Additional observations from a re-analysis of the deposited data

How the results depend on the processing

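Member calls in swi3 changed with the processing. The count of 2 tested members called ranged from 0 to 2 without dye and from 0 to 1 with Congo Red when single arrays were left out, and with Congo Red it was 1 with the trended and robust prior, and 4 both without both number 1 arrays of rlm1 and with only the strains compared. With the replicate block over the swi3 and wild-type arrays only, added after the data were seen, it was 5 with Congo Red and 4 without. With the replicate block across all strains, where rlm1 did not meet the limit for pairing, it was 3 with Congo Red and 3 without, the added member being PDC6 (adjusted p = 0.0444 and 0.0370). For that block, the prior and the compared strains alone, the share of all features is not given, so those counts stand without a background. The replicate block within strain changed no member's call, and with it BAT1 in the wild type with against without dye had an adjusted p of 0.0688. Further quantile normalization moved ARO10, swi3 minus wild type, to -5.12 with Congo Red and -3.60 without. It also gave 1 called member, PDC5, in rlm1 with Congo Red (adjusted p = 0.039), where 1312 of the 5659 features were called. Without rlm1 number 1 untreated, ARO10 was 0.41 in rlm1 minus the wild type without dye (also without both number 1 arrays), 0.68 for the dye in rlm1, and -0.68 for the difference of responses. Over all single left-out arrays these 3 values ranged from -0.34 to 0.41, from 0.68 to 1.445 and from -0.68 to 0.085. PDC1 in swi3 without dye was called after centring (0.42, adjusted p = 0.0358), where 831 features were called higher and 863 lower. Among list genes, LEU3 in swi3 without dye turned to 8e-04 after quantile normalization, and ENO2 turned to 0.0067 with Congo Red and 0.03 without after centring. Called features ranged from 700 to 4204 with Congo Red and from 739 to 4442 without in swi3, from 94 to 1312 and from 1 to 22 in rlm1, and for the dye from 3 to 409 in swi3, from 0 to 99 in rlm1 and from 62 to 1856 in the wild type. For the difference of responses they ranged from 4 to 255 in swi3 and from 9 to 596 in rlm1. Of the swi3 calls, 85.4% were lower with Congo Red and 85.5% without, against 49.7% and 50.4% after quantile normalization and 50% and 50.9% after centring. In rlm1 with Congo Red 92.7% were lower, against 53.9% and 56.5%, and without dye 75%, against 63.6% and 50%. For the dye in the wild type 23.3% were lower, against 51.2% and 43.3%, and in the difference of responses in rlm1 100% were lower, against 65% and 90.8%, and in swi3 100%, against 84% and 96.1%. Signal under 7 limits some of the printed differences in swi3, ARO10, ARO9, DAL80, SPL2 and HMS2 among them. The causes of these changes were not tested.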
